A study of Mus musculus with 3 samples.

Results

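The cells described here are the neurons in the back skin of mouse fetuses at E13.5, counted in embryonic days. A cell was counted as a neuron when at least 5 of 9 neuron genes (Tubb3, Elavl3, Elavl4, Dcx, Ina, Map2, Snap25, Nefl and Stmn3) were above 0 and when Sox10, Cdh5, Ptprc and Trp63 were all at 0, 1 gene each of glia, endothelium, leukocytes and epidermis. This rule took 343 of the 5962 E13.5 cells (5.75%, exact binomial 95% interval 5.18 to 6.37) and left 5619 other E13.5 cells, out of 16235 cells in the whole series. The study followed dorsal skin through hair follicle induction, organogenesis and cytodifferentiation, with C57BL/6 males taken as fetuses at E13.5 or E16.5 or on the day of birth (P0) and 1 droplet-based 3′ single-cell library per stage. Each library pooled several animals, and the tissue was dissociated with trypsin/EDTA at both fetal stages and with collagenase IV at P0. With 1 library per stage and cells that are no replicates of a stage, no difference below was tested, and all intervals cover counting error only.

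The rule genes encode parts of the neuronal cytoskeleton (Tubb3, Ina, Nefl, Map2, Dcx, Stmn3), RNA-binding proteins of young neurons (Elavl3, Elavl4) and a protein of the vesicle fusion machinery (Snap25). Nerve fibres that reach the skin belong to sensory and sympathetic neurons whose cell bodies sit in ganglia outside it, and such neurons are known for peripherin (Prph), for advillin (Avil, in sensory neurons) and for Isl1. The dorsal spinal cord, which lies under the back, makes its excitatory neurons under Tlx3 and Lmx1b and its inhibitory neurons under Pax2, Pax8, Lhx1 and Lhx5. Excitatory neurons there load glutamate into vesicles with the transporter Slc17a6, and inhibitory neurons load GABA and glycine with Slc32a1.

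Cells that passed the rule were almost all from E13.5. At E16.5, 1 of 5208 cells passed (0.0192%, exact binomial 95% interval 0.000486 to 0.107), and at P0 it was 0 of 5065 cells, which allows a share of up to 0.0592% (3 cells of the total, as for each count of 0 below). The median E13.5 cell had 7066.5 UMIs (unique molecular identifiers, each standing for 1 captured transcript), whereas an E16.5 cell had 11021 and a newborn cell 6797, so the E16.5 cells were the most deeply read. The enzyme changed only at P0, and the stage and the library cannot be told apart. Of the neurons' cell barcodes, 2 were also present at E16.5 and 1 at P0, where 44 and 41 barcodes were shared with the E13.5 library as a whole.

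**Figure D1:**
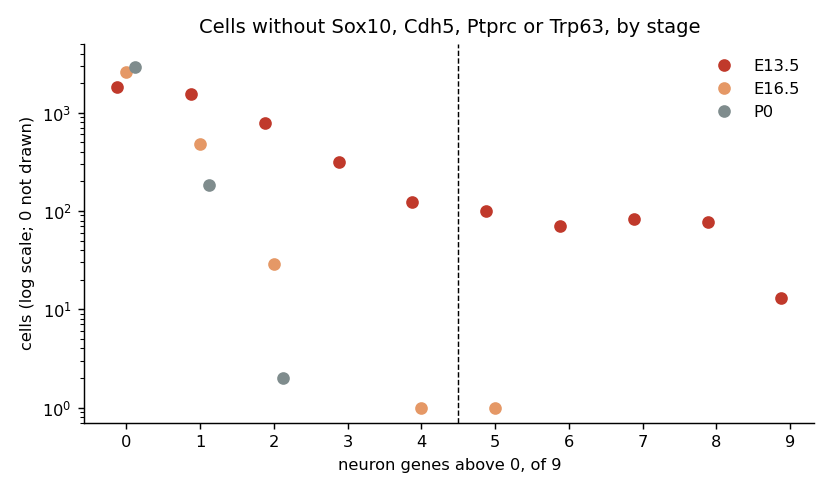
Number of cells (log axis) with each number of the 9 neuron genes above 0, among cells with none of the 4 excluded genes, for the 3 stages; the dashed line marks the minimum of 5 genes. At E13.5 the points run past the line out to 9 genes, while 1 cell at E16.5 and none at P0 lie beyond it.

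Among the 343 neurons, 100 cells had 5 of the 9 genes, 71 had 6, 82 had 7, 77 had 8 and 13 had all 9. Just outside the rule stood 123 cells with 4 genes, in which the median cell had 280 CPM (UMIs of the gene scaled to a sum of 1e6) of Tubb3, where the median neuron had 1711. A further 43 cells had at least 5 of the neuron genes and were left out for an excluded gene, among them 15 with Sox10, 12 with Trp63, 10 with Cdh5 and 7 with Ptprc. The neurons held 2777188 UMIs together, between 3593 and 48362 per cell with a median of 5708, and their median cell had 2497 genes. The other E13.5 cells had a median of 7169 UMIs, so that the median of all 343 neurons was below that of the cells they were set beside. This did not hold for every part of the neurons. The 157 neurons in 2 clusters made mostly of neurons, described below, had a median of 5246 UMIs. The 186 neurons elsewhere had a median of 7718 UMIs, above that of the other E13.5 cells.

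Prph and Avil, the pair used to set ganglion-like cells apart, were not detected more often in the neurons than in the other E13.5 cells. Prph had 1 UMI in the 343 neurons, so that 1 cell (0.292%, exact binomial 95% interval 0.00738 to 1.61) fell on the ganglion-like side of the split and 342 on the other. Among the other E13.5 cells Prph had 112 UMIs in 89 of 5619 cells (1.58%), and among the 409 E13.5 cells with a transcript of the endothelial gene Cdh5 (median 8392 UMIs) it was found in 8 cells (1.96%). Detection in the neurons was thus not above that in cells that should lack the gene. Avil had 0 UMIs in the neurons, which allows up to 0.875% of cells with a UMI, and 9 UMIs in 9 of the other cells. The ganglion-like cell itself had 13729 UMIs, exactly 5 neuron genes with 1 UMI of Tubb3 and 41 UMIs of the collagen gene Col1a1, and it clustered with cells led by the mitotic genes Psrc1 and Cenpf. A comparison of ganglion-like with other neurons was therefore not made.

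The neurons were not of 1 kind in what else they carried. When all 5962 E13.5 cells were clustered without regard to the rule, the 343 neurons were spread over 22 of 27 clusters. A cluster led by Igfbpl1, Gm2694, Rtn1 and Tubb3 was made of neurons for 100 of its 104 cells (96.2%), and a cluster led by Sst, Npy, Lamp5 and Neurod6 for 57 of 57. These 157 cells are called the neurons of the 2 neuron clusters below. Another 104 neurons sat in a cluster of 262 cells (39.7% neurons), led by Sst, Rtn1, Igfbpl1 and Gm2694, in which the neurons had 889 CPM of Tubb3 and 1331 CPM of Col1a1, 19 in a cluster of 84 cells led by Fabp7, Sox2 and Hes5, and 63 over 18 other clusters.

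Transcripts of other cell types differed between these places. The 12 dermal genes (Col1a1, Col3a1, Lum, Twist2 and others) summed to 777 CPM in the neurons of the 2 neuron clusters, 5350 CPM in the 186 neurons elsewhere and 6723 CPM in the other E13.5 cells, which put the neurons elsewhere at 79.6% of the other cells' level and those of the 2 clusters at 11.6%. The 13 muscle genes summed to 142, 942 and 748 CPM and the 8 immune genes to 43.4, 231 and 508 CPM in the same order. Ribosomal protein genes made up 9.62%, 18.1% and 20.1% of UMIs. The median cell had 3639 CPM of Tubb3 in the 2 neuron clusters and 531 CPM elsewhere, with the rule genes used to pick both. Of the neurons elsewhere, 53 of 186 reached 1000 CPM of Tubb3, as did 54 of the 5619 other E13.5 cells. The dermal sum of the median other cell (6703 CPM) was reached by 61 of the 186 and by 1 of the 157. The part of dermal and other transcripts in the values of the neurons elsewhere was not tested, and values of the 157 are given beside several of those that rest on all 343.

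**Figure D2:**
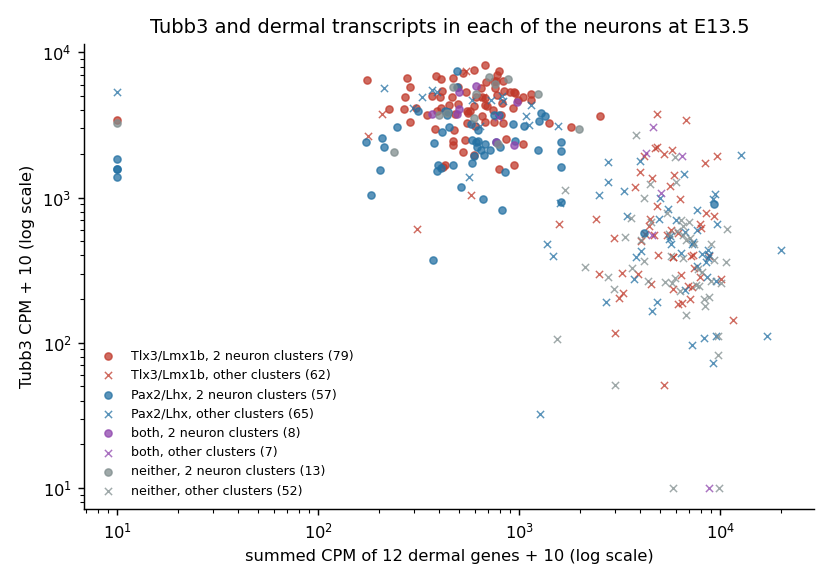
Tubb3 against the summed level of 12 dermal genes in each of the 343 neurons, both in CPM with 10 added on log axes; circles are cells of the 2 neuron clusters, crosses cells of other clusters, and colour gives the set by Tlx3, Lmx1b, Pax2, Pax8, Lhx1 and Lhx5. The circles gather at high Tubb3 and low dermal levels, and many crosses lie at the dermal levels of other cells with Tubb3 below 1000 CPM.

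Haemoglobin transcripts were found everywhere. Hbb-y, an embryonic beta-globin, had a UMI in all 343 neurons and in 99.9% of the other cells, and the median cell held 3316 CPM of the 9 erythroid genes in the 2 neuron clusters, 2970 CPM in the neurons elsewhere and 2949 CPM in the other cells. These medians lay close together, although the summed levels, which a few very rich cells raise, were 3671, 14133 and 18483 CPM. The median neuron thus held about as much red cell RNA as the median cell of other kinds.

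Compared with the other E13.5 cells, the neurons were higher by 2-fold or more (after adding 10 to each CPM) for 610 of 13665 genes with at least 50 UMIs, which is 4.46% of those tested, and lower for 105 genes, which is 0.768%. For the neurons of the 2 neuron clusters the counts were 1411 of 13596 genes higher (10.4%) and 1440 lower (10.6%). The neurons were chosen on 9 genes in the same cells, so these counts, and those of the lists below, are descriptions and no evidence that the cells are neurons. The median log2 difference over all genes tested was -0.01.

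The gene that led all others was not in the rule. Igfbpl1, a secreted protein of the insulin-like growth factor binding protein family (chr4:45809468-45826923, minus strand, GRCm38), stood at 1252 CPM in the neurons and 32.3 CPM in the other cells, which was 38.7-fold higher (exact 95% interval for counting 36.5 to 41.1), with a UMI in 309 of 343 neurons. Behind it came Ina, Rtn1 (a reticulon of the endoplasmic reticulum), Tubb3 and Elavl3, with 772, 1154, 1778 and 408 CPM in the neurons against 20.04, 37.9, 78.3 and 11.6 CPM. The transcription factor gene Neurod6 reached 286 against 7.58 CPM and was found in 182 neurons, and Tagln3, a neuronal relative of transgelin, 519 against 21.8 CPM. Sst, which encodes the peptide somatostatin, also stood among the first 15 genes (log2 difference 4.19), but 44 neurons held all of its UMIs and 1 of them 19.4%. The remaining 7 of the 15 were Hoxb8 (4.01), Pcsk1n (3.94), Dcx (3.94), Stmn3 (3.89), Mir124-2hg (3.84), Gm2694 (3.81) and Hoxb6 (3.78). Of the 15, Ina, Tubb3, Elavl3, Dcx and Stmn3 are genes of the rule, so their place follows from the choice of cells.

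Genes that neurons share across types were mostly higher. Of the 35 measurable genes of this kind outside the rule (cytoskeleton, adhesion, secretory granules), 31 were higher, 0 lower and 4 neither, with a median log2 difference of 2.32. Scg3, a protein of dense-core granules, was 36.8-fold higher (exact interval 28.8 to 47.1), Nhlh2, a transcription factor of newborn neurons, 37.5-fold (32.1 to 44.0) and Stmn2, a growth cone protein, 11.6-fold (11.0 to 12.2). Thy1, a surface glycoprotein of mature neurons and of fibroblasts, went the other way at 25.6 against 41.6 CPM and was lower by 2-fold or more in the neurons of the 2 neuron clusters. The neurofilament gene Nefm, at 62.3 against 9.69 CPM, was higher but found in 97 of the 343 cells.

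Synapse and channel genes were higher in part. Of 29 synapse genes, 14 were higher, 0 lower and 15 neither, and of 32 channel and receptor genes, 11 were higher, 1 lower (the touch channel Piezo2, 6.12 against 24.5 CPM) and 20 neither. In the neurons of the 2 neuron clusters 21 of 29 synapse genes and 18 of 28 channel genes were higher, where 10.4% of all genes tested were. Glra2, a glycine receptor subunit of the embryo, was 32.5-fold higher (20.9 to 51.5) and the acid-sensing channel gene Asic1 18.9-fold (15.3 to 23.4). Syn1, which coats synaptic vesicles, had 43 UMIs in 38 neurons (15.5 against 0.85 CPM), so synaptic transcripts were present at low counts.

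Genes known from the switch to neuronal splicing and chromatin, a list added after the data had been seen, were partly higher. Actl6b, the neuronal subunit of a chromatin remodelling complex, was 36.4-fold higher (28.9 to 46.1) and found in 139 neurons, and Mir124-2hg, a host transcript of the neuronal microRNA miR-124, at 240 against 7.44 CPM (32.3-fold, 28.4 to 36.7). The splicing factor gene Ptbp2, used by young neurons, was 2.69-fold higher, while its relative Ptbp1 was at 75.6 against 116 CPM and Rest, a repressor of neuronal genes outside the nervous system, at 72.0 against 106 CPM. In the neurons of the 2 neuron clusters Ptbp1 and Rest were both lower by 2-fold or more.

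Among the lists of neuron identity, the one of genes known from the dorsal spinal cord had the most members higher. Of 20 measurable genes of that list, 11 were higher and 0 lower: Lbx1, Lmx1b, Pax2, Pax8, Gbx1, Gbx2, Lhx5, Zic1, Pou2f2, Sall3 and Skor1, with a list median of 1.38 on the log2 scale. The list summed to 1785 CPM in the neurons, 2409 CPM in those of the 2 neuron clusters and 1187 CPM in the other E13.5 cells. Its sum was higher still, at 3000 CPM, in the 65 cells outside the rule of the cluster led by Fabp7, Sox2 and Hes5. Those 65 cells had 0 UMIs of Lmx1b, Pax8 and Gbx1, among others. Lbx1, which marks the later-born dorsal interneurons, had a UMI in 129 of 343 neurons (37.6%) and in 5.87% of the other cells (4.65% of the Cdh5 cells), and stood at 78.9 against 8.82 CPM (8.94-fold, exact interval 7.57 to 10.5). After every cell was thinned to 3500 UMIs, which leaves out 1 E13.5 cell with fewer, its shares were 23.6% and 2.76%. Skor1, a corepressor that acts with Lbx1, was 25.6-fold higher (20.04 to 32.7), and Zic1, a dorsal midline factor also transcribed in dermis, 2.55-fold (2.37 to 2.73), found in 50.3% of the other cells. Of 10 measurable genes of the ventral spinal cord, 0 were higher and 0 lower, with a median of -0.33. In the neurons of the 2 neuron clusters 14 dorsal genes were higher and 3 lower (Zfhx3, Zfhx4 and Nfia), and of the ventral genes 1 was higher (Onecut2) and 3 were lower, among them En1 and Foxp2. Of all genes tested for these neurons, 10.4% were higher and 10.6% lower. The 1 of 10 ventral genes higher and the 3 of 20 dorsal genes lower lay near these shares.

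Genes of sensory neurons were mostly neither higher nor lower. Of 27 measurable ones, 7 were higher (Pou4f1, Tlx3, Neurod1, Ntrk2, Ntrk3, Cntnap2 and Gfra1), 1 lower (Piezo2) and 19 neither, and both Pou4f1 and Tlx3 are also known from the dorsal spinal cord. Over all genes tested, 4.46% were higher and 0.768% lower. Drgx, a further gene of the sensory list, was measured under its older symbol Prrxl1 and is missing from this count. Prrxl1 was also higher by 2-fold or more. Pou4f1, a POU factor of sensory and dorsal neurons, had 250 UMIs in 91 neurons (27.3-fold higher, 22.3 to 33.4). The LIM factor gene Isl1, which sensory, sympathetic and motor neurons use, was found in 21 neurons (6.12%) and in 7.12% of the other cells, and in 0 of the 157 neurons of the 2 neuron clusters, which allows up to 1.91% of cells with a UMI. The nociceptor genes Scn11a, Trpv1 and P2rx3 were at 0 UMIs in the 343 neurons, Prdm12 was found in 1 and Ret, a receptor of the glial cell line-derived factors, in 2. Of the neurotrophin receptors Ntrk3 was 8.09-fold higher (6.18 to 10.5) and Ntrk2 2.89-fold (2.39 to 3.46). In the neurons of the 2 neuron clusters the same count of sensory genes, 7, was higher, and 7 were lower, among them Isl1, Runx1 and Runx3. Among all genes tested for these neurons, 10.4% were higher and 10.6% lower.

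Sympathetic and motor genes were few. Among 9 measurable sympathetic genes, Npy and the nicotinic receptor gene Chrna3 were higher and 7 were neither, and the defining genes Phox2a and Dbh were at 0 UMIs while Th, the first enzyme of catecholamine synthesis, had 7 UMIs in 6 neurons. Among 6 motor genes 1 was higher, Lhx1, and Isl2, Lhx3, Slc18a3 and Slc5a7, which mark or serve motor neurons, were at 0. Each 0 allows a share of up to 0.875% of neurons with a UMI, which limits detection at this depth and not expression. Of 15 measurable genes of neural progenitors, Dll3, a Notch ligand of cells leaving the progenitor state, was higher (50.1 against 4.91 CPM), Fabp7 was lower and 13 were neither. In the neurons of the 2 neuron clusters Dll3 was again higher and 3 genes were lower, without Fabp7, and of the 6 motor genes 2 were higher and 2 lower. The shares over all genes tested for these neurons were 10.4% higher and 10.6% lower. Sox2 was found in 9 neurons.

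Hox genes, which mark position along the trunk, stood out next. The 39 Hox genes listed include 35 measured ones, 30 of them with at least 50 UMIs, and of these 15 were higher, 0 lower and 15 neither, with a median log2 difference of 0.99. For the neurons of the 2 neuron clusters it was 20 higher, 1 lower and 9 neither, with a median of 1.57. There, 10.4% of all genes tested were higher and 10.6% lower. All measured Hox transcripts summed to 3931 CPM in the neurons, 7413 CPM in those of the 2 neuron clusters, 2328 CPM in the neurons elsewhere and 851 CPM in the other E13.5 cells. The 4 Hox clusters differed in how far they stood above the other cells. Cluster B summed to 2211 against 205 CPM and had 8 of its 9 measurable genes higher (Hoxb2 to Hoxb9), cluster A 707 against 160 CPM with 4 of 9, cluster C 816 against 408 CPM with 2 of 6 (Hoxc9 and Hoxc10) and cluster D 197 against 77.5 CPM with 1 of 6 (Hoxd9).

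Hoxb8 (chr11:96281905-96285315, plus strand, GRCm38) was found in 294 of 343 neurons and was 21.5-fold higher (610 against 28.4 CPM, exact interval 20.02 to 23.1), and its neighbour Hoxb9 (chr11:96271457-96276595) 17.1-fold (579 against 33.9 CPM). In the thinned cells Hoxb8 was detected in 72.6% of the neurons and in 10.3% of the other cells. Hoxb6 was at 326 against 14.4 CPM, while Hoxb2 at the other end of the cluster was at 146 against 42.2 CPM (3.46-fold). Cluster C was mixed: Hoxc8 was at 241 against 126 CPM and passed 2-fold only in the neurons of the 2 neuron clusters, as did Hoxc6, while Hoxc4 was at 34.6 against 49.5 CPM and Hoxc5 at 36.7 against 75.4 CPM, and Hoxc5 was lower by 2-fold or more in the neurons of the 2 neuron clusters. Of the most posterior genes, Hoxa10 (93.6 against 18.1 CPM) and Hoxc10 (104 against 39.1 CPM) were higher, and Hoxa11, Hoxb13, Hoxc11, Hoxc13 and Hoxd11 had 0 UMIs in the neurons.

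**Figure D3:**
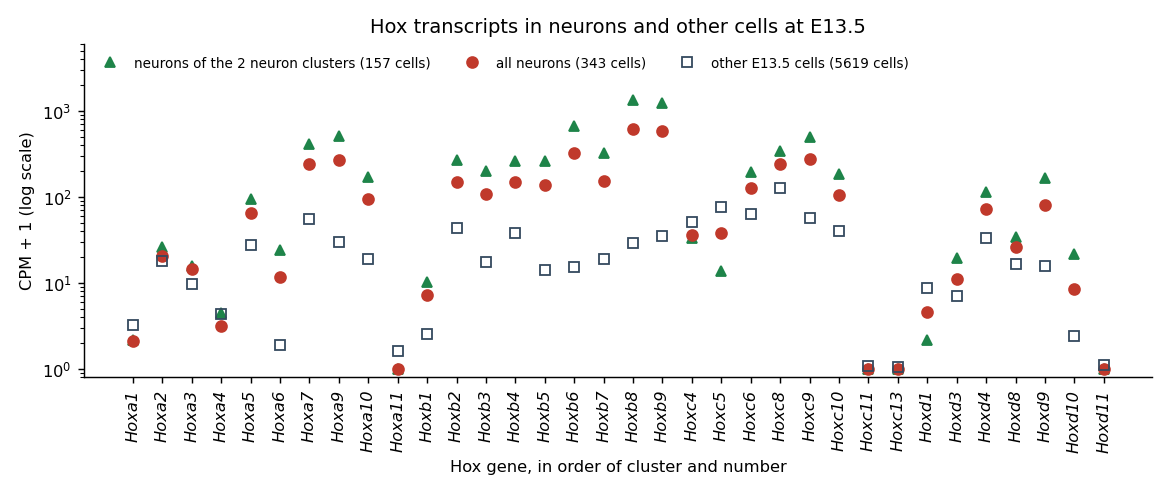
Level of each Hox gene with a UMI (CPM with 1 added, log axis), in the order of the 4 clusters and their numbers, for the neurons of the 2 neuron clusters, all neurons and the other E13.5 cells. The neurons stand above the other cells along nearly the whole of cluster B, most of all at Hoxb6, Hoxb8 and Hoxb9, and at or below them at Hoxc4 and Hoxc5.

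Within the neurons, the factors of excitatory and of inhibitory dorsal neurons kept apart. Of the 137 neurons with Tlx3 (chr11:33200752-33203589, minus strand), 4 had Pax2 (2.92%, exact binomial 95% interval 0.801 to 7.31), against 74 of the 206 neurons without Tlx3 (35.9%, 29.4 to 42.9). Lmx1b ran with Tlx3 instead, in 62 of the 137 cells (45.3%, 36.7 to 54.0) against 19 of 206 (9.22%, 5.64 to 14.0). Lhx5 ran with Pax2 (chr19:44756045-44837871, plus strand), in 60 of 78 cells (76.9%, 66.0 to 85.7) against 43 of the 265 without it (16.2%, up to 21.2). Lbx1 did not separate them: of its 129 cells, 61 had Tlx3 (47.3%) and 39 had Pax2 (30.2%).

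By these 6 genes, 141 neurons had Tlx3 or Lmx1b and none of Pax2, Pax8, Lhx1 and Lhx5 and are called Tlx3/Lmx1b neurons, 122 had any of the 4 and neither of the 2 and are called Pax2/Lhx neurons, 15 had genes of both groups and 65 of neither. This split was made after the data had been seen, and its 6 genes are no findings between the sets. The 2 neuron clusters held 79 of the 141 and 57 of the 122. Their depths were close, at medians of 5773 and 5533.5 UMIs per cell, while the median Tubb3 level was 3062 CPM in the Tlx3/Lmx1b and 1581 CPM in the Pax2/Lhx neurons. In the comparison of the sets, 57 of 6067 genes were 2-fold or more higher in the Tlx3/Lmx1b neurons (0.94%) and 65 were lower (1.07%).

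The genes for neurotransmitters followed this split. Slc17a6, the vesicular glutamate transporter (chr7:51622006-51671119, plus strand), had 152 UMIs in 75 of the 141 Tlx3/Lmx1b neurons (53.2%) and 2 UMIs in 2 of the 122 Pax2/Lhx neurons, a ratio of 58.1 (exact 95% interval 15.8 to 484). Slc32a1, the vesicular GABA and glycine transporter (chr2:158610767-158615748, plus strand), had 1 UMI in the first set and 115 UMIs in 67 cells of the second (54.9%), a ratio of 150 in their favour (26.5 to 5991). Thinned to 3500 UMIs, Slc17a6 was found in 38.3% and 0.82% of the sets and Slc32a1 in 0 of 141 cells, which allows up to 2.13%, and in 34.4%. In the Cdh5 cells, taken at full depth (median 8392 UMIs), 2.69% had Slc17a6 and 1.71% had Slc32a1. The 1.64% of Pax2/Lhx neurons with Slc17a6 and the 0.71% of Tlx3/Lmx1b neurons with Slc32a1 were not above these shares. Endothelial cells should make neither, but the Cdh5 cells were deeper than the neurons. They also include the 10 left out of the rule with at least 5 neuron genes, so their shares are no clean background.

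The enzymes that make GABA and the membrane transporter for glycine lay on the same side as Slc32a1. Gad2 had 6 UMIs in the Tlx3/Lmx1b and 161 UMIs in 74 of the Pax2/Lhx neurons, Gad1 had 0 and 24 UMIs (at least 10.5-fold higher in the Pax2/Lhx neurons, with 3 UMIs set for the 0) and Slc6a5 0 and 42 UMIs (at least 18.3-fold). Glycine and GABA genes met in the same cells, with Slc6a5 in 25 of the 85 neurons with Gad2 (29.4%) and in 10 of the 258 without it (3.88%). Taken as 1 class, Gad1, Gad2, Slc32a1 or Slc6a5 without Slc17a6 marked 93 of 122 Pax2/Lhx neurons (76.2%, 67.7 to 83.5) and 3 of 141 Tlx3/Lmx1b neurons (2.13%), whereas Slc17a6 without any of them marked 2 (1.64%) and 72 (51.1%, 42.5 to 59.6). Over all 343 neurons, 95 had Slc17a6 alone, 107 the inhibitory genes alone, 4 both and 137 neither, while of the other E13.5 cells 1.49% had Slc17a6 alone and 9.18% the inhibitory genes alone, most of them by Gad2, found in 7.94% of those cells.

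The same held in the cells with few dermal transcripts. In the 2 neuron clusters alone, Slc17a6 stood at 244 CPM in the Tlx3/Lmx1b neurons and was at 0 in the Pax2/Lhx neurons, and Slc32a1 at 0 and 204 CPM. Over all 343 neurons, 1 of the 99 with Slc17a6 also had Slc32a1 (1.01%, 0.0256 to 5.50), against 74 of the 244 without it (30.3%). The 65 neurons with none of the 6 factors held 13 cells with Slc17a6 alone, 7 with inhibitory genes alone and 45 with neither, so most cells without a factor also lacked a transmitter gene at this depth.

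Promoters of genes that led the split are shown at annotated starts: Slc17a6 for the Tlx3/Lmx1b set and Slc32a1 and Sst for the Pax2/Lhx set. Each runs from 250 bases before to 50 bases after a start annotated by RefSeq in GRCm38.p6, 5′ to 3′ on the gene's strand. They were searched for the homeodomain core TAATTA, the E-box CAGCTG and the cAMP response element TGACGTCA, which read the same on both strands, and capitals mark a match. Slc17a6 has a start further upstream (chr7:51621580-51621879, plus strand, for the same window), whose window held none of the 3 motifs, and the start inside the gene is shown. The printed window is thus the one of this pair with a match, and which start these cells used was not measured.
Slc17a6 chr7:51624387-51624686, plus strand: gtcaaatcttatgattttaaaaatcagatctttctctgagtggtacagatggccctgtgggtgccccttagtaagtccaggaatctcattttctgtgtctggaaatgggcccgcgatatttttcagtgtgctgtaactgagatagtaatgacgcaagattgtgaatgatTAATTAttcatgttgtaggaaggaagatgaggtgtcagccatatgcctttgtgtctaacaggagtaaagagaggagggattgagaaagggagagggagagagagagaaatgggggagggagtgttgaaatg
Slc32a1 chr2:158610508-158610807, plus strand: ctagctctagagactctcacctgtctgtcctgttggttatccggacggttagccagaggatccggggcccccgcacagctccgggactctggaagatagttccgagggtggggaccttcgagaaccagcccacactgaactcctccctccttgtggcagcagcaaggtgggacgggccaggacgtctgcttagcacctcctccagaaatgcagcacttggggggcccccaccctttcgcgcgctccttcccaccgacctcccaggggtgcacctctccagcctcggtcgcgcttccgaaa
Sst chr16:23890795-23891094, minus strand: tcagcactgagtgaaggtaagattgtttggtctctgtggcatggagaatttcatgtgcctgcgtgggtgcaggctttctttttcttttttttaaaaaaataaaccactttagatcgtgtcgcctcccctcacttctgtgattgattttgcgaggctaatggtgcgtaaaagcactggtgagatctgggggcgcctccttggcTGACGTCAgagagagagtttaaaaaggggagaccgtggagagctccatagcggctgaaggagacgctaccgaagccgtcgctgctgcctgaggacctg
The printed Slc17a6 window held 1 TAATTA, the Sst window 1 TGACGTCA and the Slc32a1 window no match. Among 32851 promoters of the same length, 5.29% held TAATTA, 16.3% CAGCTG and 1.79% TGACGTCA. A match is a description of the letters and not a site.

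Outside the 6 factors, a pair of peptide genes had the largest log2 differences between the sets. Npy (chr6:49822710-49829507, plus strand), which encodes neuropeptide Y, had 978 UMIs in 66 of the 122 Pax2/Lhx neurons and 13 UMIs in 10 of the 141 Tlx3/Lmx1b neurons, a 98.4-fold difference (exact interval 57.3 to 185). Sst (chr16:23889573-23890958, minus strand) had 855 UMIs in 34 and 18 UMIs in 3 cells, a 62.1-fold difference (39.1 to 105). Npy was also found in 16.9% of the other E13.5 cells and in 14.9% of the Cdh5 cells, mostly as a lone UMI. The 7.09% of Tlx3/Lmx1b neurons with Npy, with at most 4 UMIs in a cell, were not above these shares. The source of their Npy UMIs was not tested. In the Pax2/Lhx neurons with Npy the median was 7 UMIs and the highest 84.

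Somatostatin came from few cells. The 44 neurons with Sst had a median of 5.5 and up to 183 UMIs, and 10 of them held 80.8% of all its UMIs. Most of the Sst cells also had Npy, 34 of 44 (77.3%, 62.2 to 88.5), against 59 of the 299 neurons without Sst (19.7%). Adcyap1, which encodes the peptide PACAP, lay on the other side with 40 UMIs in 27 Tlx3/Lmx1b neurons and 3 UMIs in the Pax2/Lhx neurons, a ratio of 10.2 (3.25 to 51.5). Of 11 measurable neuropeptide genes only Sst, Npy and Adcyap1 were higher in the neurons than in the other E13.5 cells, and Penk, the precursor of enkephalins, was lower (27.4 against 70.3 CPM). The same 3 genes were higher in the neurons of the 2 neuron clusters, where 3 were lower, Penk among them, beside 10.4% higher and 10.6% lower over all genes tested.

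Further transcription factors divided between the sets. Prrxl1 (the older symbol of Drgx), a homeodomain factor of pain circuits, had 154 UMIs in 80 Tlx3/Lmx1b neurons and 4 UMIs in 4 Pax2/Lhx neurons (29.4-fold, 11.3 to 109). Pou4f1 (172 against 27 UMIs), Uncx (193 against 31), Ebf2 (356 against 63) and Ebf3 (344 against 72) were also higher by 2-fold or more in the Tlx3/Lmx1b neurons. On the side of the Pax2/Lhx neurons stood Neurod2, which had 336 against 5 UMIs (87.9-fold, 37.3 to 272), Tfap2b (506 against 61 UMIs), Neurod6 (589 against 127), Sall3 (122 against 8), Rorb (71 against 7) and Gbx1 (55 against 2). Lbx1, with UMIs in 60 Tlx3/Lmx1b and 53 Pax2/Lhx neurons (1.19-fold higher in the latter, 0.888 to 1.60), and Zic1, with 441 and 297 UMIs, differed by less than 2-fold. Of the 15 measurable dorsal genes, 1 was higher in the Tlx3/Lmx1b neurons (Lmx1b, used in the split), 6 were lower (Pax2, Pax8 and Lhx5, used in the split, and Gbx1, Sall3 and Skor1) and 8 neither.

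Genes that guide axons and build synapses split as well. Robo3, the receptor that lets growing axons cross the midline, had 211 UMIs in 53 Pax2/Lhx and 10 UMIs in 7 Tlx3/Lmx1b neurons (27.6-fold, 14.7 to 58.4), and the netrin receptor gene Unc5c had 100 and 7 UMIs. Of 22 measurable guidance genes 3 were higher in the Pax2/Lhx neurons (Robo3, Unc5c and Epha4), 1 was higher in the Tlx3/Lmx1b neurons (the semaphorin receptor gene Plxna2) and 18 were neither. The presynaptic neurexin gene Nrxn3 had 8 UMIs in the Tlx3/Lmx1b and 211 UMIs in the Pax2/Lhx neurons (34.5-fold higher in the latter, 17.2 to 80.9). Lamp5, a membrane protein of GABAergic terminals, followed Nrxn3 with 10 and 419 UMIs (54.8-fold, 29.5 to 115).

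The genes that led the Tlx3/Lmx1b side included partners of neurexins and calcium channels. Cbln1, a secreted protein that bridges synapses, had 133 UMIs in 70 cells against 6 UMIs (17.0-fold, 7.58 to 47.0), Nrn1, a neurite-promoting membrane protein, 154 against 8 UMIs (14.7-fold, 7.29 to 34.7) and Cacna2d1, a calcium channel subunit, 198 UMIs in 100 cells against 21 UMIs (7.21-fold, 4.59 to 11.9). Gm2694, a non-coding gene (chr8:87460469-87525554, plus strand), had 504 against 27 UMIs, and Cbln1 (chr8:87468405-87472609, minus strand) lies within its span on the opposite strand. How reads were assigned by strand is not given in the sources used here, and without strand the pair could not be told apart in that stretch. Tmem163, a zinc transporter, with 128 against 4 UMIs and the non-coding gene C130021I20Rik, next to Lmx1b, with 144 against 5 UMIs were also on this side, and Lhx1os, next to Lhx1, on the other with 4 against 249 UMIs.

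A pair of leading genes belonged to other cell types. Myog, a muscle regulator, had 295 against 30 UMIs and Cpa3, a mast cell protease, 119 against 10 UMIs, and 1 cell held 37.3% of the Myog and 52.9% of the Cpa3 UMIs of the Tlx3/Lmx1b neurons. In the 2 neuron clusters their direction was turned, with log2 differences of -0.74 and -0.081. Of 7 measurable muscle genes 3 were higher in the Tlx3/Lmx1b neurons (Myod1, Myog and Tnnt2), and the 12 dermal genes had 0 of 11 measurable ones higher or lower.

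General neuronal and Hox genes differed little between the sets. Of 32 measurable genes shared across neurons, 1 was higher in the Tlx3/Lmx1b neurons (Nefm, 112 against 29 UMIs), 0 were lower and 31 neither, and Tubb3 was 1.35-fold higher there (1.26 to 1.44). Of 21 Hox genes, 1 was higher there, Hoxb6 with 575 against 196 UMIs (2.24-fold, 1.90 to 2.65), and 20 were neither. Hoxb8 had 762 and 695 UMIs and Hoxb9 599 and 755 UMIs, and relative to all UMIs Hoxb9 was 1.65-fold higher in the Pax2/Lhx neurons (1.48 to 1.84).

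**Figure D4:**
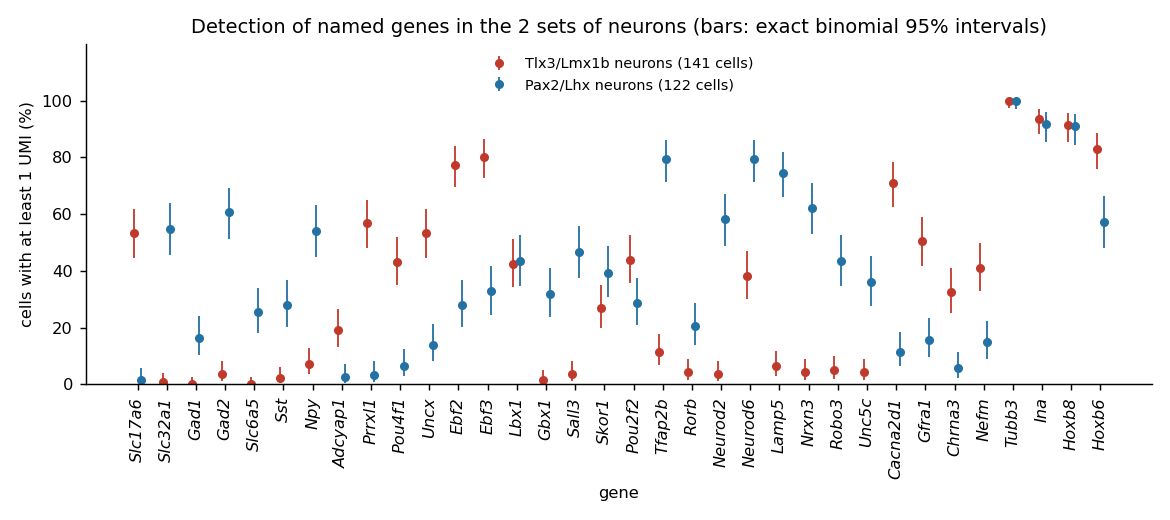
Share of Tlx3/Lmx1b neurons (141 cells) and Pax2/Lhx neurons (122 cells) with at least 1 UMI of each named gene, in percent at full depth; bars are exact binomial 95% intervals, which cover counting error only. Slc17a6, Prrxl1, Ebf2, Ebf3 and Cacna2d1 are high in the first set, Slc32a1, Gad2, Tfap2b, Neurod2, Lamp5 and Nrxn3 in the second, and Lbx1, Tubb3, Ina and Hoxb8 nearly equal in both.

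Cell cycle genes set the neurons of the 2 neuron clusters apart. With depth brought down to 3500 UMIs, a cell counted as outside the cycle when neither its score over 42 S phase genes nor that over 52 G2/M genes was above 0, and 211 of the 343 neurons were so called (61.5%, exact binomial 95% interval 56.1 to 66.7), against 28.2% of the other E13.5 cells (62.4% and 27.6% without thinning). In the 2 neuron clusters it was 154 of 157 cells (98.1%, 94.5 to 99.6), and in the neurons elsewhere 57 of 186 (30.6%, 24.1 to 37.8). The 2 sets were alike in this at 68.1% of Tlx3/Lmx1b and 64.8% of Pax2/Lhx neurons. Over all neurons 0 of the 42 S phase and 0 of the 52 G2/M genes differed by 2-fold. In the 2 neuron clusters 29 and 40 of them were lower, where 10.6% of all genes tested were lower. The neurons elsewhere, with the lower share, also had the higher dermal levels, whose part in it was not tested, and phase calls alone do not show division.

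Beside the neurons lay a cluster led by Fabp7, Sox2, Hes5 and Msx3, genes known from neural progenitors. It was picked as the cluster with the most cells that held several of Sox2, Hes5, Fabp7, Pax3 and Gsx1. Its 65 cells outside the rule had 9694 CPM over the progenitor list, against 297 CPM in the neurons and 373 CPM in the other E13.5 cells. That list includes the genes used to pick the cluster, which also helped to form it, so this level follows from the choice. Their Hox genes summed to 3244 CPM, of which cluster B made 1113 CPM, between the other E13.5 cells and the neurons of the 2 clusters. Slc17a6 and Slc32a1 were both at 0 UMIs in these 65 cells (median 5208 UMIs), which allows up to 4.62% of cells with a UMI and says nothing of transcripts not captured, and 5 cells had Tlx3. The 19 neurons of this cluster were 14 Pax2/Lhx, 4 Tlx3/Lmx1b and 1 with genes of both, with 4519 CPM of Tubb3 and 158 CPM of Col1a1.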

How the data were processed

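Droplet-based 3′ single-cell RNA sequencing measured pooled back skin in 1 library per stage, and the file holds 19165 genes and 16235 cells. The authors aligned reads to mm10 and counted UMIs with Cell Ranger 2.2.0 (per the labels), filtered cells by gene number with Seurat and, as deposited, gave each value as a natural log: ln of 1 plus the gene's UMIs scaled to 10000 per cell; that formula was found from the values. The design text gives 15086 cells. The lowest gene number in a cell of the file was 1750. All 48197283 values above 0 came out as whole UMIs within 0.001, and those UMIs were used here.

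UMIs were summed over the cells of a group and given as CPM, with exact Poisson intervals (ratios by the exact binomial) and Clopper-Pearson intervals for shares, at 95%. A gene was called higher or lower at 2-fold with 10 added to each CPM, among genes with at least 50 UMIs over both groups. A fold against 0 used 3 UMIs. With 1 library per stage there are no replicates and no tests. The other E13.5 cells serve both comparisons of neurons. Cells were clustered with the Leiden method at resolution 1, on 15 neighbours over 30 components of the 2000 most variable genes. Cycle scores used scanpy's gene scoring. Scrublet with an expected rate of 0.06 called 0 doublets among 5962 cells and was treated as not having worked, so doublets stayed in.

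The members, the gene lists and the rule for named genes (every gene of the lists, and the 15 highest log2 differences of neurons) were chosen with earlier results of these data known. The planned comparison of ganglion-like neurons was not made because it held 1 cell, and its rule of the 12 highest and 12 lowest genes was applied to the comparison of Tlx3/Lmx1b with Pax2/Lhx neurons, added after the data were seen together with the splicing list and Prrxl1, Tfap2b, Ebf2, Ebf3, Uncx and Rorb. Listed genes with no value in the file, such as Mnx1 and Chat, are not analysed here. Positions came from GENCODE (577 of 578 symbols matched) and promoters from RefSeq, both on GRCm38. The steps were tested on simulated data and used Python 3.11.15, numpy 2.4.6, scipy 1.17.1, pandas 2.3.3, scanpy 1.11.5, leidenalg 0.10.2 and matplotlib 3.10.9. Alternatives changed the rule, the depth, the members kept, the pseudocount, the UMI minimum and the weight of cells.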

Additional observations from a re-analysis of the deposited data

How the results depend on the processing

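The rule and the number of cells kept set the size of the group, with 343 neurons under the main rule, 171 in cells with at least 2500 genes, 201 with under 2 genes of each other class, 204 in the clusters that hold most of them and 157 in the clusters mostly of neurons (an alternative added after seeing the data). The ganglion-like share was 0% with the split by Avil alone, with at least 2 UMIs, with at least 6 neuron genes, with cells thinned before the rule and in either choice of clusters. The share outside the cycle was 51.7% with at least 4 genes, 74.1% with at least 6, 79.9% after thinning, 50.9% with at least 2500 genes, 85.1% with under 2 genes of each other class and 98.1% in clusters mostly of neurons, and moved little under the other settings. Genes higher in neurons than in the other cells numbered 956 after thinning, 1100 with under 2 genes of other classes, 1411 in clusters mostly of neurons, 1188 with 1 and 183 with 50 added to each CPM. Genes lower numbered 41 with at least 4 and 262 with at least 6 genes, 586 after thinning, 840 with under 2 genes of other classes, 215 with at most 2 times the median UMIs, 168 in the clusters that hold most and 1440 in those mostly of neurons, 978 with 1 and 10 with 50 added, and 194 with equal weight of cells. The count lower than the other cells was thus the least stable value.

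Genes higher in Tlx3/Lmx1b than in Pax2/Lhx neurons numbered 175 in the clusters that hold most neurons, 86 in those mostly of neurons, 95 with 1 and 20 with 50 added and 91 with at least 20 UMIs. Genes lower numbered 43, 32 with 50 added and 109 with at least 20 UMIs, the first in the clusters that hold most. Cpa3 turned to -0.22 after thinning, -0.70 with under 2 genes of other classes, -1.20 in the clusters that hold most and -0.081 in those mostly of neurons, and Myog to -0.74 in the last. Of the 39 genes named by the size of their difference, the only ones run under the alternatives, these 2 alone dropped under 2-fold, in 7 values under 5 settings. The 39 were picked for large differences in the same cells, so this says little of other genes. Of the 57 higher and 65 lower genes between the sets, 40 and 10 were shared in the clusters that hold most neurons. In those mostly of neurons 36 and 41 were shared, where neurons against the other cells kept 606 of 610 and 103 of 105. The cause of these changes was not tested. Depth limits the rest: 3 UMIs stand at 1.08 CPM in the neurons, and a gene in 0 of 343 cells may have a UMI in up to 0.875% of such cells, with transcripts not captured left aside. No paired analysis was possible because there is 1 library per stage and no replicate number.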
